A study of Mus musculus with 2 samples.

Results

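Chemokine receptors are surface proteins that sense secreted chemokines and steer leucocytes towards them. The genes Ccr1, Ccr2, Ccr6, Ccr7, Ccr8, Cxcr3, Cxcr4, Cxcr6 and Cx3cr1 were taken by symbol, and they make up 9 of the 32285 mouse genes counted in single cells of peritoneal ovarian tumours. Their UMIs (unique molecular identifiers, which count captured RNA molecules) were summed per cell class and library and are given as CPM, the count scaled to a class total of 1e+06 UMIs. The C57BL/6 mice were females of 6 to 8 weeks. Their peritoneum was abraded, and syngeneic ovarian cancer cells that lack p53 and carry myc and Hras were injected intraperitoneally. From 1 day later, mice received a daily intraperitoneal injection of control IgG or of the Activin A neutralizing antibody for 10 days. The series describes 7 mice with IgG and 8 with the antibody, and the sources used here differ on the number of mice and days behind the libraries. The tumours at the abrasion site were pooled within each group, dissociated and freed of dead cells without selection for a cell type, so each group is 1 library. No test between the groups was possible, and the antibody cannot be told apart from any other difference between the libraries.

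Most chemokine receptors are G protein-coupled and set where a leucocyte goes. Ccr2 brings monocytes from the blood into inflamed tissue, and Ccr1 and Cx3cr1 serve monocytes, macrophages and some lymphocytes. Cxcr3 and Cxcr6 mark T cells that have entered inflamed tissue, whereas Ccr7 leads naive lymphocytes and mature dendritic cells to lymph nodes. Ccr6 is known from B cells and interleukin-17-producing lymphocytes, Ccr8 from regulatory T cells in tumours, and Cxcr4 holds many leucocytes near cells that make Cxcl12.

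Sequencing gave 98174850 UMIs with IgG and 74117462 with the antibody. After limits on genes, UMIs and mitochondrial RNA, 8770 and 6386 cells were kept, with medians of 5719 and 4660 UMIs per cell, and 19 kept barcodes occurred in both libraries. Cells were sorted by computer into 7 lymphoid and 7 myeloid classes from marker genes, none of them a chemokine receptor, and each class name stands for the cells that passed its gate. The 14 classes took 6135 cells of the IgG library (70.0%) and 4042 of the antibody library (63.3%). Tumour and stroma gates held 282 and 313 cancer-like cells and 239 and 270 fibroblasts. C1q macrophages, gated on the complement genes C1qa, C1qb and C1qc, were 12.5% of IgG cells (1100 cells) and 4.04% of antibody cells (258 cells). Intervals in this text are 95% intervals, exact Poisson for CPM and conditional binomial for ratios, and they cover counting error only. They are too narrow where few cells hold the UMIs of a gene.

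All 9 gene identifiers matched the GRCm38 annotation, the build named in the submitters' processing notes. Ccr1, Ccr2, Ccr8, Cxcr6 and Cx3cr1, 5 of the 9 genes, lie on chromosome 9. Cxcr6 (chr9:123806475-123811760, plus strand) ends 290189 bases before Ccr2 (chr9:124101950-124113557, plus strand), with Ccr1 (chr9:123962124-123968692, minus strand) between them. Cx3cr1 (chr9:119901616-120069879, minus strand) and Ccr8 (chr9:120092114-120094906, plus strand) are 22234 bases apart. The other 4 genes lie apart, with Cxcr4 at chr1:128588199-128592293, Ccr7 at chr11:99144196-99155077, Ccr6 at chr17:8236043-8257141 and Cxcr3 at chrX:101731535-101734269. Neighbours on this stretch were read from different cells, Cxcr6 from T cells and Ccr1 from myeloid cells.

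The windows upstream of 3 receptors are shown as examples of different patterns, Ccr1 read mostly in myeloid classes, Cxcr6 in T cells and Cxcr4, like Ccr2, in every class. Each holds 180 bases of RefSeq sequence (GRCm38.p6), from 200 to 21 bases before the transcription start and written along the gene's strand, with matches to the searched letters in capitals. They are chr9:123968713-123968892 (minus strand) for Ccr1, chr9:123806277-123806456 (plus strand) for Cxcr6 and chr1:128592320-128592499 (minus strand) for Cxcr4.
Ccr1: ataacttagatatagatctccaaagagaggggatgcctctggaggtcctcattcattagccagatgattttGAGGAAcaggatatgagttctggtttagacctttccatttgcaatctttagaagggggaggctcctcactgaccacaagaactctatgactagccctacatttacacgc
Cxcr6: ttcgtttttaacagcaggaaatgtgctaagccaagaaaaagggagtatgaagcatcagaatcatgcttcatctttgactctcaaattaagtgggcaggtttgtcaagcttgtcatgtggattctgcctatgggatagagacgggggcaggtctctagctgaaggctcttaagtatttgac
Cxcr4: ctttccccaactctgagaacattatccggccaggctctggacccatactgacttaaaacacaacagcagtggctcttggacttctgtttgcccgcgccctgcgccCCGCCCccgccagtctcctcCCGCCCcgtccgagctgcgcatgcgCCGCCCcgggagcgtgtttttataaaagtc
Searched on both strands were GAGGAA (core letters of sites for the myeloid factor PU.1), AGGTGT (T-box factors), GGGCGG (Sp1) and TGACTCA (AP-1). The Ccr1 window held GAGGAA 129 bases before the start, and 17.03% of 32851 promoters hold it in the same window. The Cxcr4 window held 3 copies of GGGCGG on the opposite strand, beginning 95, 75 and 50 bases before the start, and 27.9% of promoters hold that motif. The Cxcr6 window held none of the 4 motifs, of which AGGTGT is in 8.57% and TGACTCA in 3.37% of promoters. GC content was 43.9% for Ccr1, 43.3% for Cxcr6 and 61.1% for Cxcr4, against a median of 52.8%. These matches are letters in a window and not shown binding sites.

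Ccr2, the receptor for the monocyte attractants Ccl2, Ccl7 and Ccl12, had its highest level in monocyte-like cells in both libraries. These cells, gated on Lyz2 with Ly6c2, Plac8, Chil3 or F13a1, held 696 CPM of Ccr2 with IgG (664 to 729) and 762 with the antibody (712 to 813). A UMI was found in 86.5% of them with IgG and 85.5% with the antibody, and in 65.8% and 66.8% when each cell was thinned to 2000 UMIs. Regulatory T cells, gated on Foxp3 and with 1398 and 931 CPM of Ctla4, followed at 449.9 and 376 CPM, NK cells at 368 and 408 CPM, and C1q macrophages at 367 and 316 CPM, an order whose neighbours had overlapping intervals. Interleukin-17-type gamma delta T cells (Trdc with Il17a, Cd163l1 or Il23r), conventional dendritic cells (Cd209a, Flt3 or Zbtb46) and type 1 dendritic cells held 236 to 308 CPM. Among the other T cells Ccr2 was lower, at 112 and 104 CPM in CD8 T cells and 121 and 137 CPM in conventional CD4 T cells. B cells were the lowest class, at 10.9 CPM (11 UMIs) and 25.3 CPM (15 UMIs). Ccr2 was thus read in all 14 classes of both libraries, with monocyte-like cells well above the rest.

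Ccr1, a receptor for Ccl3, Ccl5, Ccl6, Ccl7 and Ccl9, was largely myeloid. Myeloid classes held 95.3% of its UMIs within the 14 classes with IgG (2600 UMIs) and 92.7% with the antibody (908 UMIs). Its level was 267 and 298 CPM in monocyte-like cells, 174 and 175 CPM in C1q macrophages and 106 and 148 CPM in conventional dendritic cells. CD8 T cells held 1.96 and 1.15 CPM, and B and NK cells stayed at or below 10.1 CPM. The highest class differed between the libraries. With IgG it was the neutrophil lineage at 638 CPM (458 to 865), from 41 UMIs in 19 cells. In the antibody library it was the monocyte-like cells, and the neutrophil lineage held 139 CPM (103 to 183) from 50 UMIs in 25 cells. With a minimum of 500 genes per cell in place of 1000, the neutrophil lineage was highest in both libraries.

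Cx3cr1, the receptor for the membrane-bound chemokine Cx3cl1, was low in every class. Monocyte-like cells held 57.7 CPM with IgG and 53.1 with the antibody, and C1q macrophages 45.9 and 53.0. CD8 T cells held 24.1 and 26.1 CPM, where 11.7% and 11.3% of cells had a UMI. The neutrophil lineage stood at 93.3 CPM with IgG, from 6 UMIs, and at 13.9 CPM with the antibody, from 5 UMIs. The intervals of neighbouring classes overlapped in most of this order.

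Cxcr6, the receptor for Cxcl16, was read almost wholly from lymphoid cells. Lymphoid classes held 99.7% of its UMIs in the IgG library and 99.8% in the antibody library. It was highest in conventional CD4 T cells, at 399 CPM with IgG (383 to 415) and 436 with the antibody (416 to 457). Interleukin-17-type gamma delta T cells held 393 and 339 CPM and CD8 T cells 303 and 311 CPM. Regulatory T cells were lower, at 128 and 73.5 CPM, and NK cells lower still at 68.9 and 37.1 CPM. A Cxcr6 UMI was found in 70.2% of CD8 T cells with IgG and 70.8% with the antibody. Thinned to 2000 UMIs, 42.7% of 2678 IgG cells and 45.6% of 2086 antibody cells had a UMI, shallower cells among the 2700 and 2110 being left out. Fibroblasts, which should lack the receptor, had a Cxcr6 UMI in 4.18% and 1.48% of cells at medians of 17556 and 11216 UMIs, and after thinning in 0 of 239 and 0 of 268 cells, which allows up to 1.26% and 1.12%. The CD8 T cell medians were 5694 and 4852 UMIs. Free RNA from barcodes under 100 UMIs held 69.5 and 91.2 CPM of Cxcr6. C1q macrophages, in which free RNA was estimated at 4.06% and 2.64% of UMIs, held 1.64 and 1.14 CPM.

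Cxcr3, the receptor for the interferon-induced chemokines Cxcl9 and Cxcl10, was also lymphoid, with 98.8% and 98.9% of its UMIs in lymphoid classes. Regulatory T cells had 179 CPM with IgG (135 to 232) and 106 CPM with the antibody (56.5 to 182), from 56 and 13 UMIs. Conventional CD4 T cells held 156 and 131 CPM and CD8 T cells 123 and 109.6 CPM. Outside T and NK cells Cxcr3 was above 30 CPM in plasmacytoid dendritic cells alone among the 14 classes, at 50.1 and 61.1 CPM from 15 and 12 UMIs. The highest class was regulatory T cells with IgG and interleukin-17-type gamma delta T cells with the antibody, where 12 UMIs in 18 cells gave 226 CPM (117 to 395). In both libraries the interval of the highest class overlapped that of conventional CD4 T cells, which came next.

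Ccr7, which leads cells towards Ccl19 and Ccl21, had the highest level that any of the 9 receptors reached. Mature dendritic cells, gated on Fscn1, Cacnb3, Il4i1 and Socs2, held 1215 CPM with IgG (1130 to 1304) and 1184 with the antibody (1086 to 1289). A Ccr7 UMI was present in 78.8% and 76.4% of them. B cells came next at 108 and 150.1 CPM, and conventional dendritic cells held 50.8 and 54.8 CPM. In CD8 T cells the level was 8.61 and 9.92 CPM and 4.04% and 3.93% of cells had a UMI.

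Ccr6, the receptor for Ccl20, was highest in B cells, at 33.7 CPM with IgG (23.3 to 47.1) and 60.7 CPM with the antibody (42.5 to 84.0). A UMI was found in 11.02% and 18.8% of B cells. Interleukin-17-type gamma delta T cells, a population in which Ccr6 is known, had 0 UMIs in 36 and in 18 cells, which allows up to 8.33% and 16.7% of cells with a UMI. That gate asked T cells for at least 1 UMI of Trdc and 1 of Il17a, Cd163l1 or Il23r. Its name was not checked on further markers. Conventional CD4 T cells held 2.76 CPM in both libraries. Of the 70 and 59 Ccr6 UMIs within the 14 classes, 48.6% and 61.0% came from B cells, 24.3% and 18.6% from conventional CD4 T cells and 14.3% and 8.47% from CD8 T cells. Regulatory T cells had 0 UMIs with IgG and 24.5 CPM with the antibody, from 3 UMIs, with an interval that overlapped that of B cells.

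Over all kept cells, Ccr8 (1.60 and 1.69 CPM) and Ccr6 (1.197 and 1.202 CPM) were the rarest of the 9 receptors. Ccr8 had 0 UMIs in the 7 myeloid classes and in B cells of both libraries. Regulatory T cells, the cells for which it is best known, held 12.8 and 16.3 CPM from only 4 and 2 UMIs. Conventional CD4 T cells held 9.26 CPM with IgG (57 UMIs) and 11.5 with the antibody (46 UMIs), and the regulatory and conventional T cell intervals overlapped. The conventional gate asked for Cd4 and no Foxp3 UMI, so regulatory T cells whose Foxp3 RNA was missed could pass it. It held 358 and 422 CPM of Ctla4 and 192 and 247 CPM of Ikzf2, against 2058 and 2980 CPM of Ikzf2 in regulatory T cells. The part of such cells in its Ccr8 values was not tested.

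Cxcr4, the receptor for Cxcl12, was read in all 14 classes, from 31.0 to 529 CPM with IgG and from 25.4 to 207 CPM with the antibody. The neutrophil lineage was highest with IgG at 529 CPM (366 to 739, from 34 UMIs) and B cells with the antibody at 207 CPM (172 to 247, from 123 UMIs). C1q macrophages held 118 and 141 CPM, monocyte-like cells 104 and 137 CPM and CD8 T cells 31.0 and 35.98 CPM. Cxcr4 differed in this from Cxcr6 and Cxcr3, which were read almost wholly from lymphoid classes.

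**Figure D1:**
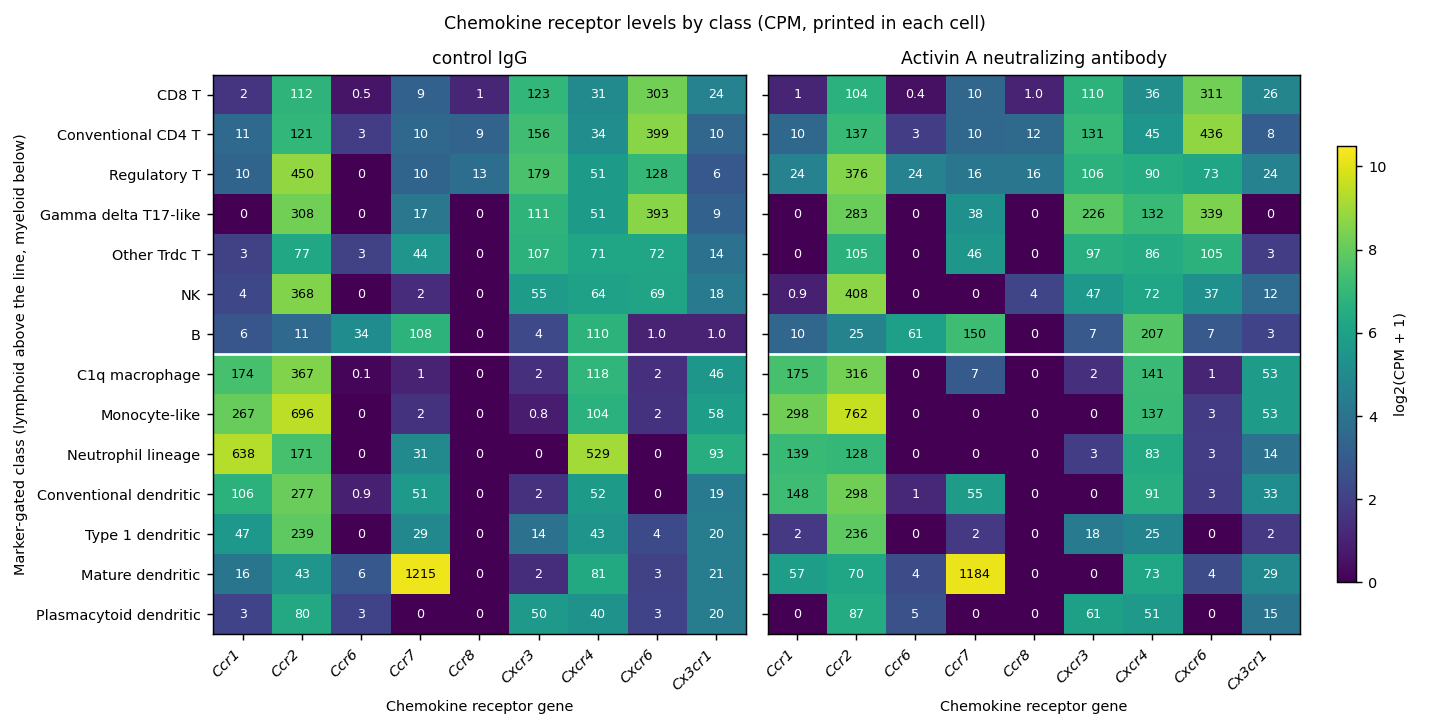
Levels of the 9 receptors (columns) in the 14 classes (rows, lymphoid above the line and myeloid below it) in the IgG library (left) and the antibody library (right), in CPM printed in each cell and coloured by log2(CPM + 1). Ccr7 in mature dendritic cells stands out in both panels, at 1215 and 1184 CPM, and Cxcr6 fills the T cell rows.

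The class with the highest level was the same in both libraries for 5 of the 9 receptors, namely Ccr2, Ccr6, Ccr7, Ccr8 and Cxcr6. The other 4, Ccr1, Cxcr3, Cxcr4 and Cx3cr1, had their IgG maximum in the neutrophil lineage or in regulatory T cells, which are classes of 19 and 43 cells. The shared class of Ccr8 was also regulatory T cells, from 4 and 2 UMIs. After thinning to 2000 UMIs, conventional CD4 T cells were highest for Ccr8 with the antibody. For Cxcr6 with IgG, interleukin-17-type gamma delta T cells were highest after thinning. Fibroblast and cancer-like cells held little of any receptor, with at most 12.2 CPM for Cx3cr1, 7.37 CPM for Ccr7 and 3.07 CPM for Ccr2 in either library. A UMI was found in 4.60% and 1.11% of fibroblasts for Ccr2, 2.09% and 0.370% for Ccr1 and 6.28% and 7.78% for Cx3cr1. For Ccr7 it was 1.26% of fibroblasts with IgG and 0 of 270 with the antibody, and for Ccr6 0 of 239 and 0 of 270, where a count of 0 allows up to 1.26% and 1.11%. After thinning, Cx3cr1 was in 1.67% and 1.87% of fibroblasts and in 4.56% and 4.70% of CD8 T cells.

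Because the classes differ in size, the cells that hold most of a receptor's RNA need not be those with the highest level. C1q macrophages held 61.2% of Ccr1 UMIs in the 14 classes with IgG and 33.7% with the antibody. For Ccr2 the C1q macrophages held 35.9% and 12.8%. All lymphoid classes together held 39.5% of Ccr2 UMIs with IgG and 56.9% with the antibody, and of Cxcr4 UMIs 41.6% and 61.7%. For Cx3cr1 the lymphoid share was 48.0% and 65.9%. These 4 receptors thus had a larger part of their RNA outside lymphoid cells in the IgG library, where C1q macrophages were more numerous.

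**Figure D2:**
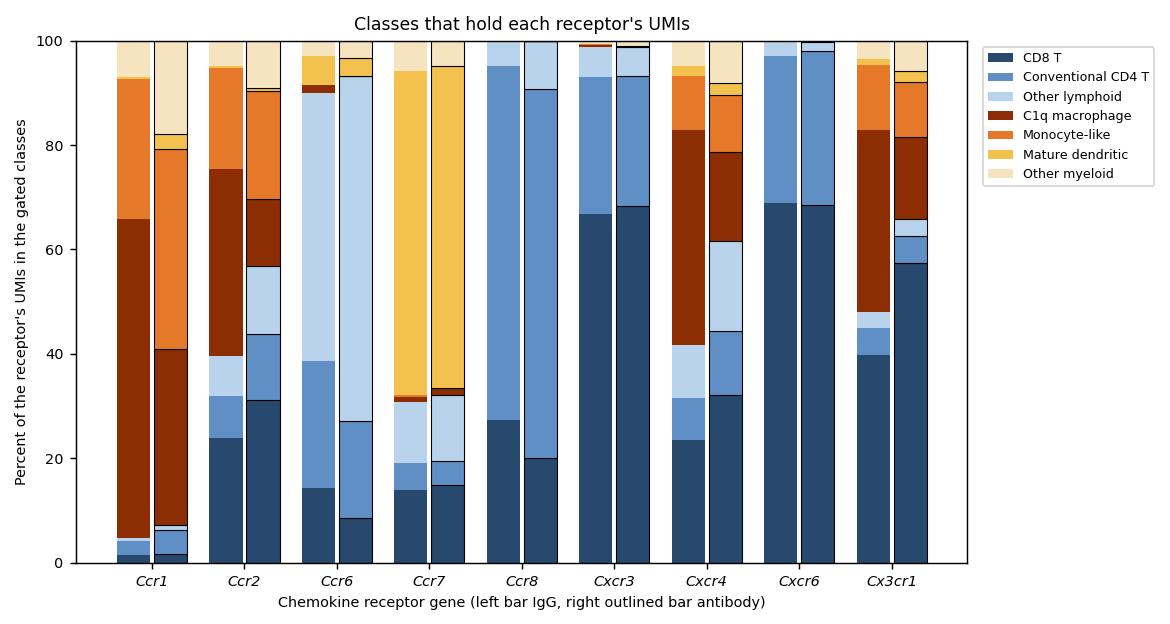
Percent of each receptor's UMIs in the 14 classes that came from each group of classes (stacked colours), for the IgG library (left bar) and the antibody library (right, outlined bar). The C1q macrophage part of the Ccr1 bar is 61.2% with IgG and 33.7% with the antibody, and the Cxcr6 and Cxcr3 bars are lymphoid in both.

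Over all kept cells, Ccr1 was at 39.9 CPM with IgG and 23.1 CPM with the antibody, a log2 ratio of -0.79 (-0.88 to -0.70). To set apart the mix of classes, the IgG level of each of 19 groups of cells was weighted by the UMIs that group held in the antibody library. This gave 26.0 CPM for Ccr1, a log2 ratio of -0.62 to the IgG value. Ccr2 was at 143 CPM with IgG and 103 CPM with the antibody, a log2 ratio of -0.47, and the weighting alone gave -0.48. Cx3cr1 had -0.32 against -0.36 by the weighting alone. Cxcr4 had -0.17 against -0.33, and Cxcr3 -0.29 against -0.12. Cxcr6 differed by only -0.07 and Ccr7 by 0.05 between the whole libraries.

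Within a class, a receptor was counted as past 2-fold where its log2 ratio of antibody to IgG, with 1 count added to each library, reached 1 or -1 and both libraries together had at least 20 UMIs. Of 126 pairs of receptor and class, 66 had enough UMIs, with at least 1 pair for each of the 9 receptors. Past 2-fold in either direction were 7 pairs, 4 higher with the antibody and 3 lower, and 59 pairs lay within 2-fold. Over all genes and classes 6.46% of pairs (6428 of 99494) were past 2-fold in either direction. The median log2 ratio of the 66 pairs was 0.12. Intervals of the ratio lay above 0 in 14 pairs and below 0 in 8. Such intervals were not counted over all genes, so these counts are not read as a result about the receptors.

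Class by class, the receptors past 2-fold are set beside the share of all tested genes past it, in either direction. In CD8 T cells 0 of 8 tested receptors were past 2-fold, with 2.95% of all genes, and in conventional CD4 T cells 0 of 9, with 2.94%. Regulatory T cells had 0 of 4 beside 9.36%, and interleukin-17-type gamma delta T cells 1 of 3 beside 8.8%. The other T cells with Trdc, the delta chain constant gene, had 0 of 5 beside 5.56%. NK cells had 0 of 5 (background 3.75%) and B cells 1 of 4 (5.65%). Among myeloid classes, C1q macrophages had 1 of 5 (5.85%) and monocyte-like cells 0 of 4 (4.15%). The neutrophil lineage had 2 of 3, in a class where 44.7% of all genes were past 2-fold. Conventional dendritic cells had 0 of 5 (4.5%), type 1 dendritic cells 1 of 3 (9.71%), mature dendritic cells 1 of 5 (7.32%) and plasmacytoid dendritic cells 0 of 3 (5.97%).

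Of the 7 pairs past 2-fold, 2 were in the neutrophil lineage, a gate on S100a8 and S100a9 with granulocyte genes. Ccr1 was at 638 CPM with IgG and 139 with the antibody there, a log2 ratio of -2.20 (-2.82 to -1.57), and Cxcr4 at 529 and 83.4 CPM, a log2 ratio of -2.66 (-3.42 to -1.91). The cells behind the gate differed between the libraries. Camp and Ngp, granule genes of immature neutrophils, were at 716 and 2225 CPM with IgG and at 13409 and 8689 CPM with the antibody, and the median depth was 2246 and 9220 UMIs. Without cells that had a Camp, Ngp or Ltf UMI, a choice made after these values were seen, 16 and 13 cells remained with 534 and 229 CPM of Ccr1 and 570 and 83.8 CPM of Cxcr4. The estimated share of free RNA in the gate was 10.00% with IgG and 0.634% with the antibody. H2-Aa, a class II gene of antigen-presenting cells, was at 2007 and 47.3 CPM in the gate. The part of these other genes in the receptor values was not tested.

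Ccr1 had opposite differences in 2 dendritic classes. In type 1 dendritic cells, gated on Clec9a, Wdfy4 and Tlr3, it was 46.9 CPM with IgG (23 UMIs) and 2.31 CPM with the antibody (1 UMI), a log2 ratio of -4.34 (-9.71 to -1.72). Macrophage genes in the same gate moved with it, Lyz2 at 1766 and 298 CPM and Apoe at 404 and 4.62 CPM. Csf1r was at 48.9 and 2.31 CPM. C1qa, C1qb and C1qc held at most 22.4 CPM with IgG and 2.31 CPM with the antibody. Low values of these 3 were set by the gate, which took only cells with fewer than 10 of their UMIs in sum. The part of the macrophage genes in the Ccr1 values was not tested. When cells with 5 or more Lyz2 UMIs were left out, also chosen after the values were seen, 10 UMIs and 1 UMI of Ccr1 remained in 29 and 25 cells (30.2 and 2.97 CPM). Ccr2 was at 136 and 235 CPM in the remaining cells, against 239 and 236 CPM in the whole gate. In mature dendritic cells Ccr1 was 16.0 CPM with IgG (7.65 to 29.4) and 57.2 with the antibody (37.4 to 83.9), a log2 ratio of 1.84 (0.74 to 3.06) from 10 and 26 UMIs. A UMI was found in 10.6% and 30.9% of mature dendritic cells, and after thinning in 7.58% and 10.9%.

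The remaining 3 pairs rested on 10 to 15 UMIs per library. Ccr7 in C1q macrophages was 1.09 CPM with IgG and 6.84 CPM with the antibody, from 10 and 12 UMIs, and 1 cell held 75.0% of the antibody UMIs. Ccr2 in B cells was 10.9 and 25.3 CPM, where 1 cell held 72.7% of UMIs with IgG and 66.7% with the antibody, and the interval of its log2 ratio of 1.21 reached from -0.01 to 2.48. Cxcr3 in interleukin-17-type gamma delta T cells was 111 and 226 CPM from 13 and 12 UMIs, with a log2 ratio of 1.03 (-0.24 to 2.28). The intervals of these last 2 pairs included 0.

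**Figure D3:**
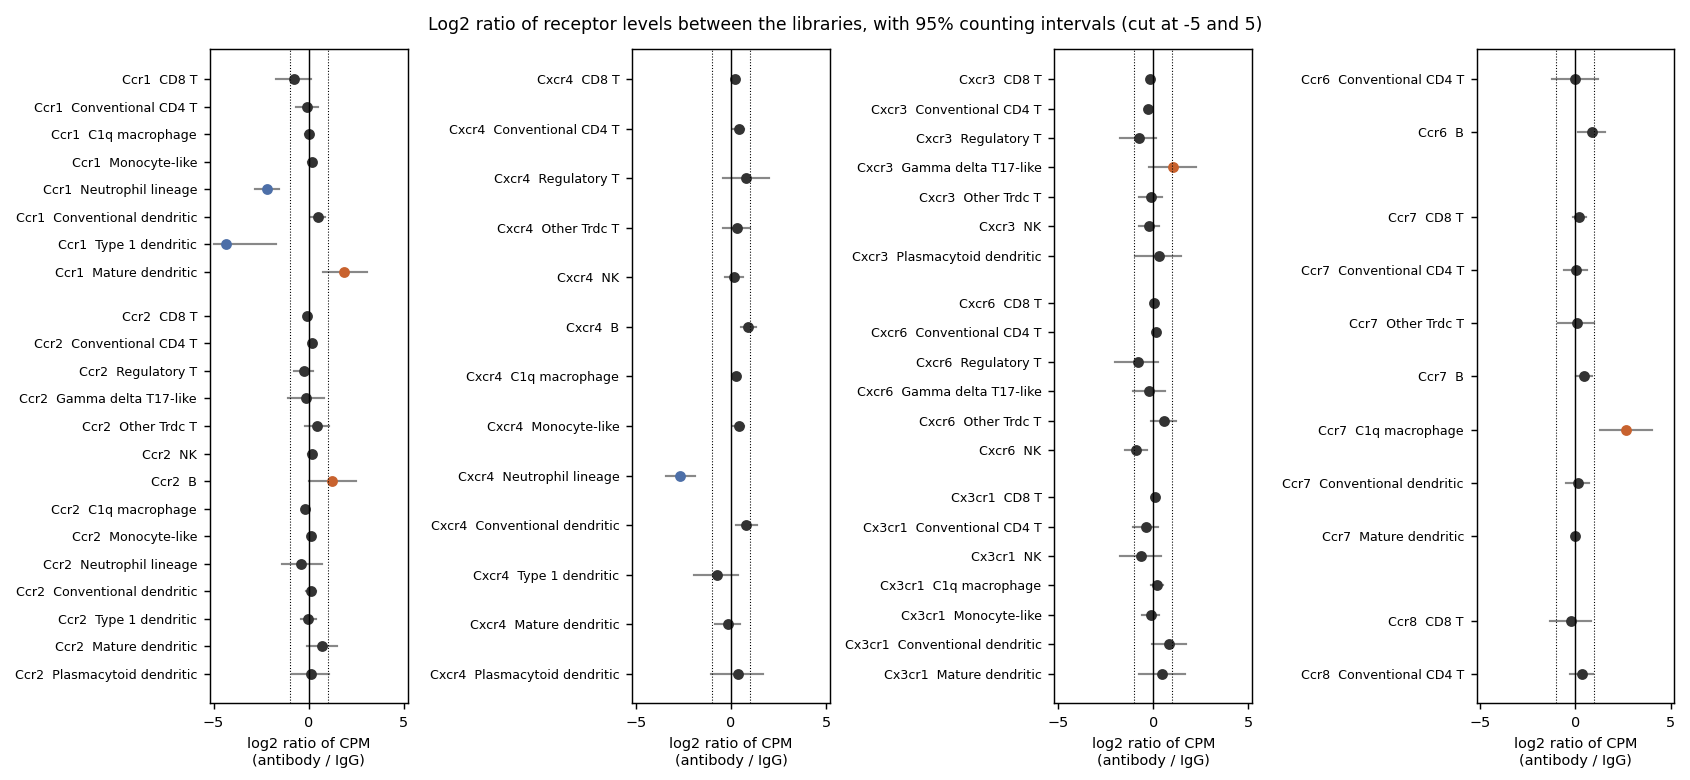
Log2 ratio of CPM, antibody over IgG, for each receptor (panels) in the classes where it had at least 20 UMIs, with 95% counting intervals as bars that end at -5 and 5. Cxcr6, Cxcr3 and Ccr2 lie near 0 in CD8 and conventional CD4 T cells, while Ccr1 ranges from -4.34 in type 1 dendritic cells to 1.84 in mature dendritic cells.

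Cxcr4 was higher with the antibody in 10 of its 13 tested classes, and in 6 of them the interval lay above 0. The share of all genes with as many such classes was not counted, so these counts are a description. B cells went from 110.0 to 207 CPM, a log2 ratio of 0.91 (0.53 to 1.30), and conventional dendritic cells from 51.7 to 90.9 CPM, a log2 ratio of 0.81 (0.28 to 1.35). Conventional CD4 T cells went from 34.1 to 45.4 CPM (0.41 in log2), monocyte-like cells from 104 to 137 CPM (0.40), C1q macrophages from 118 to 141 CPM (0.26) and CD8 T cells from 31.0 to 35.98 CPM (0.22). All 6 of these were below 2-fold. The median log2 ratio of all tested genes in the 6 classes was 0.020 to 0.12 and lay below each interval. In C1q macrophages it was only just below, at 0.049 against a lower end of 0.052. The 3 classes with a ratio below 0 were the neutrophil lineage, type 1 dendritic cells and mature dendritic cells. The direction turned in type 1 dendritic cells with the gates' marker minimums doubled (0.64), in mature and plasmacytoid dendritic cells after thinning (0.16 and -0.80), and in NK and regulatory T cells with the mean of single-cell CPM (-0.0058 and -0.036). Free RNA also held more Cxcr4 in the antibody library, at 47.9 against 29.3 CPM. With the expected free RNA subtracted, the 6 ratios were 0.21 to 0.90.

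Ratios of Cxcr3 and Cxcr6 varied among the lymphoid classes. Cxcr3 was lower with the antibody in CD8 T cells (log2 ratio -0.16, interval -0.26 to -0.07) and in conventional CD4 T cells (-0.25, interval -0.41 to -0.10). In CD8 T cells the difference was in cells with a Mki67 or Top2a UMI, at 117 CPM with IgG and 92.2 with the antibody. CD8 T cells without either gene held 131 and 130 CPM of Cxcr3. In conventional CD4 T cells Cxcr3 was lower in both parts, at 150 and 122 CPM with either gene and at 163 and 139 CPM without. Cxcr6 was slightly higher in conventional CD4 T cells (0.13, interval 0.04 to 0.22), and its ratio in CD8 T cells was 0.04 (-0.02 to 0.10). In NK cells Cxcr6 was lower with the antibody, at 68.9 and 37.1 CPM, a log2 ratio of -0.89 (-1.46 to -0.34). Regulatory T cells had ratios of -0.80 for Cxcr6 (-2.03 to 0.27) and -0.75 for Cxcr3 (-1.75 to 0.14), and Cxcr3 in interleukin-17-type gamma delta T cells was given above at 1.03. Ccr2 was lower in CD8 T cells (-0.11) and C1q macrophages (-0.22) and higher in conventional CD4 T cells (0.17) and monocyte-like cells (0.13). The median log2 ratio of all tested genes was 0.020 in conventional CD4 T cells and 0.045 in monocyte-like cells, inside both Ccr2 intervals. Without dividing cells the conventional CD4 T cell ratio of Ccr2 turned to -0.13. Cx3cr1 had an interval with 0 in all 7 of its tested classes.

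In B cells the interval lay above 0 for Ccr6 and Ccr7 as well as for Cxcr4. Ccr6 went from 33.7 to 60.7 CPM, a log2 ratio of 0.85 (0.13 to 1.57). Ccr7 went from 108 to 150.1 CPM, a log2 ratio of 0.47 (0.05 to 0.89). The median log2 ratio of all tested genes in B cells was 0.12, inside the Ccr7 interval and just below the Ccr6 interval. In B cells without a Mki67 or Top2a UMI the differences were smaller. They held 43.5 and 67.6 CPM of Ccr6 (34 and 32 UMIs) and 131 and 156 CPM of Ccr7 (102 and 74 UMIs). Cxcr4 was at 124 and 224 CPM there. Dividing B cells held 30.8 and 125 CPM of Ccr7, from only 7 and 15 UMIs. The ratio of Ccr2, 1.21 with an interval that held 0, turned to -0.23 without the 5% of cells with most UMIs and to -0.28 without dividing cells. The gate held 236 and 144 cells. Ccr10, named after its values were seen, had 37 UMIs in 8 cells of this gate with IgG and 0 with the antibody.

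Within T cells, the receptors were set against genes that are not chemokine receptors. CD8 T cells with a UMI of Tcf7 or Lef1 (genes of naive and memory-like T cells) and none of Gzmb, Prf1 or Havcr2 (genes of cytotoxic or exhausted T cells) numbered 620 with IgG and 428 with the antibody. The converse subset had 733 and 742 cells and was deeper, with medians of 5861 and 4899 UMIs against 4356 and 3930. Ccr7 marked the first subset, at 31.9 against 0.756 CPM with IgG and 40.5 against 2.47 CPM with the antibody. Cxcr6 marked the other, at 201 against 388 CPM and 199 against 379 CPM, log2 ratios of -0.95 (-1.08 to -0.82) and -0.93 (-1.09 to -0.78). Both libraries therefore showed the same contrast between these subsets. The gate held 2700 and 2110 CD8 T cells, and those with genes of both sets or of neither were left out of the comparison.

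The remaining receptors divided between the subsets. Ccr2 went with Cxcr6, at 67.1 against 121 CPM with IgG and 61.0 against 110.4 CPM with the antibody. Cxcr3 was higher in the subset with Tcf7 or Lef1, at 141 against 102 CPM and 135 against 93.4 CPM, and so was Cxcr4, at 45.9 against 20.6 CPM and 56.3 against 24.2 CPM. Cx3cr1 was 16.1 against 26.3 CPM with IgG and 23.4 against 22.7 CPM with the antibody, so its direction was not shared. In conventional CD4 T cells the same subsets gave 353 against 507 CPM of Cxcr6 with IgG and 396 against 462 CPM with the antibody. The log2 ratio was -0.52 (-0.71 to -0.33) with IgG, and with the antibody it was -0.22 (-0.44 to 0.0072), an interval that holds 0. Dividing CD8 T cells, with a Mki67 or Top2a UMI, held less Cxcr6 than the rest, at 256 against 376 CPM and 252 against 379.99 CPM.

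**Figure D4:**
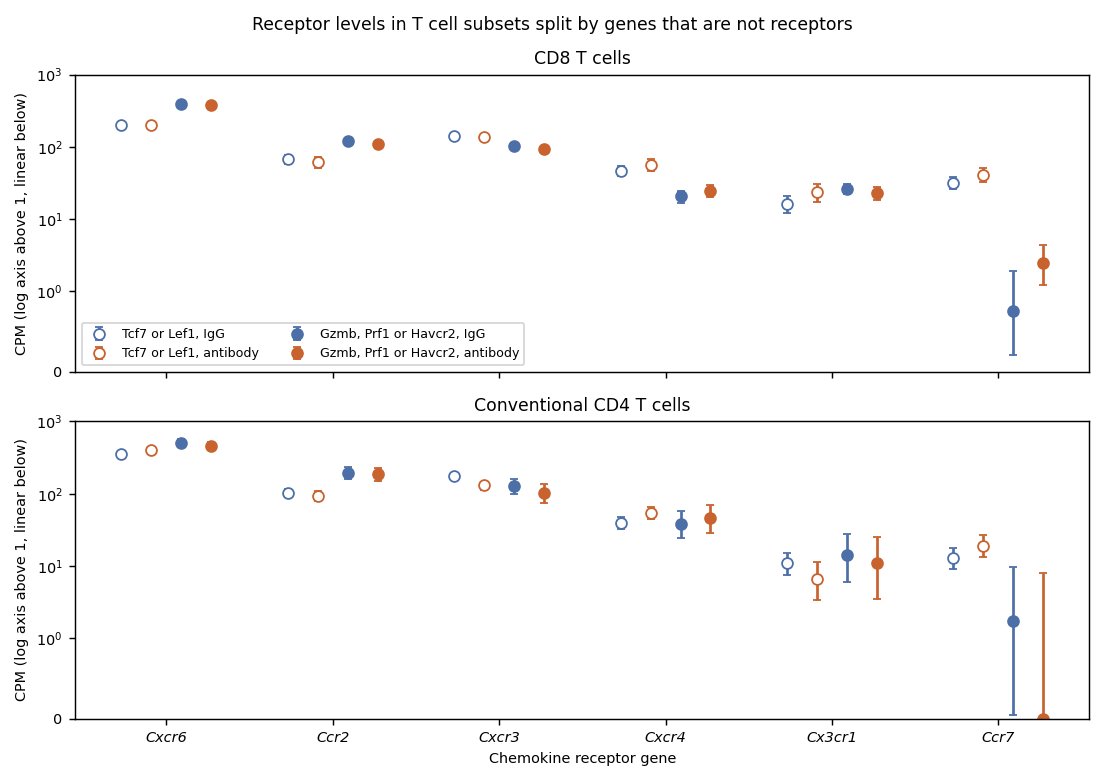
Receptor levels in CPM (log axis above 1, linear below) in CD8 T cells and conventional CD4 T cells with Tcf7 or Lef1 and without Gzmb, Prf1 or Havcr2, and in the converse subset, in both libraries, with 95% Poisson intervals as bars. Ccr7 is higher in the first subset of CD8 T cells (31.9 against 0.756 CPM with IgG) and Cxcr6 in the second (388 against 201 CPM).

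At the level of the cell, CD8 T cells with a UMI of both Ccr7 and Cxcr6 were few. After thinning to 2000 UMIs, 6 of 2678 cells with IgG and 7 of 2086 with the antibody had both, where the product of the single shares gave 23.5 and 19.1 cells. Ccr2 and Cxcr3 occurred together in 158 cells with IgG, beside 120 from the product, and in 117 cells with the antibody, beside 82.0. Ccr2 and Cxcr6 were together in 280 and 202 cells, beside 234 and 177. Cxcr3 and Cxcr6, both T cell receptors of inflamed tissue, were together in 269 and 213 cells, beside 249.7 and 201. Cells of 1 library are not replicates, and these counts are a description.

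C1q macrophages also differed among themselves. Those with Arg1 or Spp1 and none of Folr2, Lyve1 and Pf4, which are genes of resident macrophages, held 221 CPM of Ccr1 with IgG (381 cells) and 205 CPM with the antibody (108 cells). The converse subset had 97.0 CPM in 37 cells and 48.9 CPM in 12 cells, the latter from 3 UMIs. The gate held 1100 and 258 cells, and those with genes of both sets or of neither were left out of this Ccr1 comparison. Ccr2 was at 661 CPM with IgG and 503 CPM with the antibody (410 to 611) in macrophages with none of the 5 genes, and at 257 and 189 CPM, the lowest of the 4 subsets, in those with genes of both sets. The Folr2, Lyve1 or Pf4 subset held 472 CPM with IgG and, from 35 UMIs in 12 cells, 570.2 CPM with the antibody (397 to 793), and the intervals of these 2 subsets overlapped in the antibody library. Median depth was 6354 and 5882 UMIs in macrophages with none of the genes and 9128 and 6846 in those with both sets, and its part was not tested.

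Across the 14 classes of both libraries (28 points that share gates, depth and library), Cxcr3 and Cxcr6 had the most similar pattern of any pair among the 9, with a Pearson correlation of 0.80 on log2(CPM + 1). Ccr1 and Cxcr3 were the most opposed at -0.82. Among 12165 genes that were neither among the 9 receptors nor gate markers, those most like Cxcr6 were Gprin3 (0.95), Ptpn13 (0.94) and Gata3 (0.94). For Ccr1 they were Gda (0.93), Tlr2 (0.93) and Mefv (0.92), and for Cxcr3 Hp1bp3 (0.94), Sms (0.94) and Rpa1 (0.92). Ccr8 was most like Il1rl1 (0.88), Atcay (0.88) and Ncmap (0.88), and Ccr2 most like Fxyd5 (0.85), Rgs2 (0.83) and Itgb2 (0.81). Ccr7 followed Relb (0.82), Slco5a1 (0.74) and Syn3 (0.73), and Cx3cr1 followed Lst1 (0.81), Rnf149 (0.81) and Irf7 (0.80). Cxcr4 followed Sde2 (0.79), Mdm2 (0.75) and Tmcc1 (0.73), and Ccr6 followed Fcmr (0.77), Cecr2 (0.76) and Chst3 (0.76). Ccr8 had 0 UMIs in 11 of the 14 classes with IgG and in 10 with the antibody, and Ccr6 in 6 and 7. Many points behind the correlations of Ccr8 and Ccr6 were thus 0.

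The ligands of the 9 receptors were read from the same libraries, with fibroblasts and cancer-like cells added to the classes. Ccl5, a ligand of Ccr1, was highest in CD8 T cells at 9274 and 10638 CPM. Ccl6 and Ccl9, the other named Ccr1 ligands of macrophages, were highest in C1q macrophages at 1362 and 1776 CPM and at 809 and 893 CPM. Ccl3 was highest in the neutrophil lineage with IgG (731 CPM) and in monocyte-like cells with the antibody (268 CPM). The Ccr2 ligands Ccl2 (489 and 708 CPM) and Ccl7 (308 and 228 CPM) were highest in fibroblasts, and Ccl12 in C1q macrophages (61.5 and 62.2 CPM). Macrophages and fibroblasts were thus the leading classes for these Ccr2 ligands.

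Cxcl16, the ligand of Cxcr6, was highest in mature dendritic cells at 638 and 519.6 CPM. Among Cxcr3 ligands, Cxcl9 was highest in C1q macrophages (482 and 394 CPM) and Cxcl10 in mature dendritic cells (364 and 387 CPM), while Cxcl11 was not analysed here. Cxcl12, the ligand of Cxcr4, was highest in fibroblasts at 180.1 CPM with IgG and 122 CPM with the antibody. Ccl19, a ligand of Ccr7, was also highest in fibroblasts, at 24.8 and 5.48 CPM. Ccl21a stood at 3208 CPM in mature dendritic cells with IgG, but its 2010 UMIs came from 1 cell, and the antibody library held 1 UMI in fibroblasts. Ccl20, the ligand of Ccr6, had 0 UMIs in all 16 classes of both libraries. Cx3cl1 reached 11.7 CPM with IgG, in fibroblasts, and 6.60 CPM with the antibody, in mature dendritic cells. Of the Ccr8 ligands, Ccl8 was highest in C1q macrophages (634 and 725 CPM), and Ccl1 in conventional CD4 T cells with IgG (15.9 CPM) and in NK cells with the antibody (29.9 CPM).

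Beside the 9 genes, 14 other chemokine and related receptors were counted. They had 29 tested pairs, of which 0 were past 2-fold higher with the antibody and 5 lower, beside 6.46% of all pairs past it in either direction. The 5, in part named after their values were seen, were Ccr10 in B cells (37 and 0 UMIs), Ackr2 in mature dendritic cells (27 UMIs in 1 cell and 0), Ccrl2 in type 1 dendritic cells (56 and 2 UMIs), and Ccrl2 and Cxcr2 in the neutrophil lineage, where 44.7% of genes were past 2-fold. Ccrl2 was at 171 and 64.0 CPM in that lineage. At least 50 CPM in a class of both libraries was reached by 7 of the 14. Ccr9 marked plasmacytoid dendritic cells (1272 and 1227 CPM), Xcr1 type 1 dendritic cells (116 and 129 CPM) and Cxcr5 B cells (88.2 and 119.7 CPM). Cxcr2 was read in the neutrophil lineage at 482 CPM with IgG and 77.9 CPM with the antibody, the same direction as Ccr1 and Cxcr4 there. Ccrl2 (125 and 159 CPM) and Cmklr1 (69.9 and 77.6 CPM) were found in C1q macrophages and Ackr3 in fibroblasts (90.9 and 110.02 CPM). Monocyte-like cells also held Ccrl2 (105 and 102 CPM) and Cmklr1 (60.8 and 57.4 CPM), and type 1 dendritic cells held 114 and 4.62 CPM of Ccrl2.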

How the data were processed

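Single cells of 2 pooled libraries, 1 per group, were analysed, and the sample titles assign each library to its group. As deposited by the authors, the values were raw UMI counts per gene and barcode, unfiltered. The submitters' processing notes name Cell Ranger 7.0.1 and mm10, while the file headers carry another software version. Cells with 1000 to 8500 genes were kept where they also had 1000 to 100000 UMIs and no more than 10% of them mitochondrial, as in the study. Classes were gated on raw marker UMIs, with minimums set from the marker distributions. T cells that the gates did not resolve (1097 and 907), cells passing several gates (298 and 153) and cells passing none (719 and 701) were left out of the classes. The members and lists were chosen with earlier results of these data known.

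Doublets were not called. Leaving out the 5% of cells with most UMIs in each class was tried in place of that. Barcodes under 100 UMIs, with 6.39% and 6.23% of all UMIs, gave the free RNA profile. Its share in a class was estimated from Col1a1, Col1a2 and Col3a1 and lay between 2.20% and 10.00% with IgG and between 0.620% and 3.45% with the antibody. The 10.00% was that of the neutrophil lineage, which had 0.634% with the antibody. The 9 receptors were named by rule, other receptors at 50 CPM in a class of both libraries, ligands by their highest class, and like genes as the 3 highest correlations among genes with at least 100 UMIs. Python 3.11.15, numpy 2.4.6, pandas 2.3.3, scipy 1.17.1 and matplotlib 3.10.9 were used. The 2-fold calls and ratio intervals were checked on simulated Poisson counts for CD8 T and type 1 dendritic cells. Those counts had no UMIs gathered in few cells, so that case was not checked. Thinning drew 2000 UMIs per cell with seed 1. Alternatives changed the gates, free RNA, cell weights, depth, cell limits, doublets, dividing cells, scaling, fold and UMI minimum. Start sites in RefSeq and the annotation lay within 20 bases for 5 of the 8 receptors with a promoter entry, and windows of the others were not printed. Some planned genes were left out of a receptor list, a gate and a T cell split after values were seen, and they are not reported here.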

Additional observations from a re-analysis of the deposited data

Results flagged for a closer look

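Receptors were singled out where the interval of the log2 ratio of antibody to IgG lay above 0 in 1 class and below 0 in another. The share of all genes that meet this rule was not counted. The difference between classes was not tested, since each group is 1 library. For Ccr1 the ratios were 0.48 in conventional dendritic cells and 1.84 in mature dendritic cells, against -2.20 in the neutrophil lineage and -4.34 in type 1 dendritic cells. For Ccr2 they were 0.17 in conventional CD4 T cells and 0.13 in monocyte-like cells, against -0.11 in CD8 T cells and -0.22 in C1q macrophages, and the conventional CD4 T cell ratio was -0.13 without dividing cells. The Ccr2 intervals above 0 were 0.0067 to 0.33 in conventional CD4 T cells and 0.013 to 0.25 in monocyte-like cells. Each held the median log2 ratio of all tested genes in its class, 0.020 and 0.045. Cxcr4 was at 0.22 in CD8 T cells, 0.41 in conventional CD4 T cells, 0.91 in B cells, 0.26 in C1q macrophages, 0.40 in monocyte-like cells and 0.81 in conventional dendritic cells, against -2.66 in the neutrophil lineage. In that lineage 44.7% of all tested genes were past 2-fold, and the median log2 ratio of all tested genes was -0.31. The Ccr1 ratio in type 1 dendritic cells rested on 1 UMI with the antibody. Cxcr6 was at 0.13 in conventional CD4 T cells and at -0.89 in NK cells.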

How the results depend on the processing

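No paired analysis was possible because there was 1 pooled library per group, and likewise no replicate could be left out. Pairs of receptor and class past 2-fold, 4 higher and 3 lower with the antibody, became 10 and 9 at 1.5-fold. With at least 10 UMIs they were 5 and 7, with at least 50 UMIs 0 and 2, with the gates' marker minimums doubled 1 and 8, and after thinning to 2000 UMIs 0 and 1. The share of all pairs past the fold, 6.46%, is given for the main setting alone. The other counts therefore show only how the calls depend on the settings. The same highest class in both libraries held for 5 receptors, and for 3 after thinning. With at least 500 genes per cell Ccr1 joined the 5, with the neutrophil lineage highest in both libraries. Ccr2 in B cells turned from a log2 ratio of 1.21 to -0.23 without the 5% of cells with most UMIs, and to -0.28 without dividing cells. The cause was not tested. Of 600 ratios recomputed under the alternatives, 564 stayed within the counting interval of the reported value, 34 moved past it, and for the other 2, both Ccr2 in B cells, a ratio past 2-fold changed sign. The direction was the same in 546, and the rest, from pairs within 2-fold apart from these 2, changed sign or fell to 0, among them Ccr2 in the neutrophil lineage and Cxcr4 in type 1 dendritic cells. The neutrophil lineage, regulatory T, interleukin-17-type gamma delta T, type 1, mature and plasmacytoid dendritic classes held 18 to 66 cells per library, so many receptors rested on few UMIs there.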
